A study of Mus musculus with 19 samples.

Results

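Cathepsins and the subunits of the vacuolar ATPase (V-ATPase) were followed through all 11 RNA-seq libraries of a study of the mouse visceral yolk sac (VYS), a membrane around the embryo made of an outer endoderm and an inner mesoderm layer. The members were found by name, as every gene whose symbol is Cts followed by 1 or 2 letters or digits, or starts with Atp6v or Atp6ap. This naming rule was chosen with earlier results of these data known. The rule gave 48 of the 23337 gene symbols in the deposited table, 22 cathepsins and 26 V-ATPase genes, with 54 of its 30455 RefSeq transcripts, and the transcript with most reads on average stood for each gene. The cathepsins comprised 10 cysteine proteases outside the rodent placental cluster, 8 cysteine proteases of that cluster, 2 aspartic and 2 serine proteases. The V-ATPase genes comprised 10 of the membrane part V0, 13 of the cytosolic part V1 and 3 accessory proteins. The 10 of V0 include Atp6v0c-ps2, a pseudogene by its symbol with a non-coding RefSeq entry.

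The outer layer, the yolk sac endoderm (ysE), takes up maternal protein by endocytosis and breaks it down in lysosomes to feed the embryo before the placenta works. Cathepsins are the proteases of the lysosome. Most are made as inactive precursors and need an acidic compartment, which the V-ATPase provides by pumping protons at the expense of ATP. Its V1 part hydrolyses ATP, its V0 part carries the protons through the membrane, and several of its subunits exist as alternative copies encoded by different genes, some of them used mainly in kidney, bone or neurons.

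RNA was taken from ysE at embryonic day E9.25 (2 libraries, A and B) and E12.5 (1 library), VYS mesoderm at E9.25 (2 libraries), fetal liver at E12.5 (2 libraries), all from FVB mice, and from cystic embryoid bodies (EBs) after 10 and 15 days of differentiation (2 libraries each). Cystic EBs are hollow aggregates grown from embryonic stem (ES) cells. Earlier reports took them as a model of ysE, but the study concluded that their endoderm is embryonic and that they hold no ysE. The EBs sequenced for RNA were C57Bl/6x129, with replicate A from ES cell clone A9 and replicate B from clone JN at both days. Each EB replicate is therefore 1 line. Per the study's methods A9 is XY and JN is XX. The 2 VYS layers came from pooled litters and were parted with an enzyme, and the mesoderm layer also holds vessels and blood. The labels name no treatment other than differentiation in culture.

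Counts summed over transcripts ran from 40453779 in E12.5 ysE to 169981821 in E9.25 ysE B. The library protocol differed with tissue: E9.25 ysE, mesoderm and EB line JN were dUTP libraries, liver and EB clone A9 were ScriptSeq libraries, and E12.5 ysE was the only non-stranded one. Summed RPKM (reads scaled to transcript length and library size) of 7 ysE markers such as Afp and Ttr was 10410 and 11590 in E9.25 ysE and 43200 in E12.5 ysE, while cystic EBs held 158 to 1293, mesoderm held 1138 and 2031, and liver held 1638 and 2959. Pluripotency markers summed to 89.5 to 181 RPKM in cystic EBs. Haemoglobin and other erythroid markers took 2.95% and 2.41% of the counts in mesoderm A and B but 0.0592% and 0.0678% in E9.25 ysE. In bulk RNA of this kind, fewer cells of a type and less RNA per cell cannot be told apart. The labels do not tie single libraries to separate animals beyond the letters A and B, so p-values measure the spread between these libraries.

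Cathepsin RNA was abundant in ysE. The 22 cathepsins together reached 1699 and 1744 RPKM in E9.25 ysE and 2013 RPKM in E12.5 ysE, against 463 and 537 RPKM in mesoderm and 232 and 298 RPKM in liver. In cystic EBs the sum spanned 570 to 2104 RPKM. The 26 V-ATPase genes summed to 1373 and 1425 RPKM in E9.25 ysE, 1065 RPKM in E12.5 ysE, 542 and 577 RPKM in mesoderm, 279 and 350 RPKM in liver and 564 to 741 RPKM in cystic EBs. Both sums were thus highest in ysE and lowest in liver, except that the cathepsin sum of 1 EB library passed that of all ysE libraries. Of the 48 members, 22 were at 1 RPKM or more in all 11 libraries, 8 were under 1 RPKM in all of them and 18 crossed that level between libraries.

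Several of these genes share a short sequence near their start. CACGTG, which reads the same on both strands, is the core of the element bound by the MiT/TFE factors, known regulators of lysosomal genes, and also by other basic helix-loop-helix factors, while its extended form TCACGTGA contains the shorter one. RefSeq promoters (GRCm38.p6, the same coordinates as mm10), 250 bases before to 50 bases after an annotated start, were found for 36 of the 48 members. CACGTG was present in 8 of these 36 members (22.2%) and in 8.09% of all 27025 genes with a promoter in that table, and TCACGTGA was present in 5 members (13.9%) and in 1.12% of all genes. All 8 were among the 18 of these 36 members at 1 RPKM or more in E12.5 ysE. Of those 18, 44.4% held CACGTG, against 12.6% of the 7401 genes with a promoter at that level. The 12 members without a promoter in that table were not searched. Among them Atp6v0a2, Atp6v1b2, Atp6v1c1, Atp6v1g1, Atp6v1h, Ctsb and Ctsh were also at 1 RPKM or more in E12.5 ysE. The 8 were Atp6v0b, Atp6v0d1, Atp6v0e, Atp6v1a, Ctsa, Ctsd, Ctsf and Ctsl. For Atp6v1a, Ctsa and Ctsl the start in that table lies 443, 901 and 252 bases inside the annotated span of the gene, and for Atp6v0d1 and Atp6v0e the letters lie at or over the start. The stretches that follow show the letters for the other 3 genes, where they lie upstream of the outermost annotated start, because they are what these genes share: Atp6v0b (its start in the table is 4 bases inside the span), called higher in E9.25 ysE than in mesoderm, Ctsd, and Ctsf, called higher in cystic EBs. Each is written 5′ to 3′ on the gene's own strand, with CACGTG in capitals.
Atp6v0b, chr4:117887330-117887405, minus strand: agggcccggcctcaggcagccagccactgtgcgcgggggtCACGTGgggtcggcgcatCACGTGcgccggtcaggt
Ctsd, chr7:142387880-142388077, minus strand: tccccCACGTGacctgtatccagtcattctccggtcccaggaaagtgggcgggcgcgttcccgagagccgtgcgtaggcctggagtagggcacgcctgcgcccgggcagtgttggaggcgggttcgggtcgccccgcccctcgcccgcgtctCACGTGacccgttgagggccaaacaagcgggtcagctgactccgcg
Ctsf, chr19:4855046-4855131, plus strand: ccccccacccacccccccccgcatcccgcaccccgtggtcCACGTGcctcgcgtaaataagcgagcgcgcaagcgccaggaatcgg

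Atp6v0b held the letters 36 and 18 bases before the start, Ctsd 245 and 98 bases before it, and Ctsf 79 bases before it. The longer form was held by Atp6v0d1, Atp6v0e, Atp6v1a, Ctsa and Ctsd. A match describes these letters only, and binding was not measured.

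In the H3K4me3 ChIP-seq of whole E12.5 VYS, both layers together, a peak of this mark of active promoters lay within 1 kb of the start in 23 of the 36 members (63.9%), against 46.4% of all genes. The mark followed expression. Of these 36, it was present in 18 of the 18 members at 1 RPKM or more in E12.5 ysE, near the 96.5% of all genes at that level. It was present in 5 of the 18 members below it (27.8%), beside 30.5% of the 8338 genes of the expression table below it. None of the 8 placental cathepsins had a peak within 1 kb. Whole genome bisulfite sequencing of E12.5 ysE, E12.5 liver and day 15 cystic EBs, each from both reciprocal crosses of Cast and FVB (CxF and FxC), gave 15 to 20 members with at least 5 reads at CpGs within 1 kb of a start. These EBs were grown from ES cell clones CF-C2 and FC-A2 (XY per the study's methods), not from the lines sequenced for RNA. No read was counted near the starts of Ctsl, Ctsf, Atp6ap1, Atp6ap2 or the 8 placental cathepsins, on chromosomes 13, 19 and X. Median methylation of the members with at least 5 reads in ysE was 30.5% (CxF) and 32.3% (FxC), beside 42.9% and 40% over all genes. With at least 10 reads the FxC value was 58.3% for the members and 40% over all genes, which turns the direction. Among genes at 1 RPKM or more in E12.5 ysE, the medians were 20% and 20% for the members and 20% and 20% over all genes, but with at least 10 reads those of the members were 19.6% (6 members) and 50% (5 members), again beside 20% and 20%. For liver the members' medians were 60% and 60%, beside 60% and 63.2% over all genes. For cystic EBs they were 77.8% and 47.7%, beside 75% and 69.2%. Both orders turned with more reads, to 53.9% beside 75% in CxF with at least 10 reads. In FxC the value was 77.8% beside 71.4% with at least 20 reads (4 members). Among genes at that RPKM level they were 57.1% and 25.2% in liver, beside 31.3% and 37.5%, and 51.8% and 33.3% in cystic EBs, beside 37.5% and 33.3%. The liver CxF value rests on 7 members. With at least 10 reads it was 11.4% (2 members), beside 30.8% over all genes, which turns the order. The members had a median of 11.5 to 21 reads per library, and several of these medians moved when the minimum number of reads was changed. The EB medians of the 2 crosses also lay on opposite sides of the value in liver. With 2 libraries a tissue, no test of these medians was made.

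Single promoters did not all follow their RNA, which came from other mice and other EB lines (FVB tissue, A9 and JN) than the methylation. Atp6v0a4, which encodes the V0 a subunit best known from kidney and inner ear, was 15.4% methylated in ysE CxF (2 of 13 reads, 95% Wilson interval 4.33% to 42.2%) and 89.7% methylated in liver FxC (26 of 29 reads, 73.6% to 96.4%). These are different crosses, because ysE FxC (3 reads) and liver CxF (2 reads) fell under the minimum of 5 reads. In cystic EBs its promoter was 94.3% (33 of 35 reads, 81.4% to 98.4%) and 100% methylated (38 of 38 reads, 90.8% to 100%), and its RNA was highest in ysE. The promoter of the cysteine cathepsin gene Ctso was 16.7% methylated in ysE CxF (2 of 12 reads, 4.7% to 44.8%) and 50% in ysE FxC (4 of 8 reads, 21.5% to 78.5%). It was 81.8% methylated in liver CxF (18 of 22 reads, 61.5% to 92.7%) and 93.3% in liver FxC (14 of 15 reads, 70.2% to 98.8%). Both liver intervals overlap that of ysE FxC, and neither overlaps that of ysE CxF. In cystic EBs this promoter was 88.9% (CxF, 8 of 9 reads) and 94.7% methylated (FxC, 18 of 19 reads). Ctso RNA was lower in the 3 ysE libraries than in both liver libraries. These intervals cover counting error only, and reads at neighbouring CpGs are not independent.

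**Figure D1:**
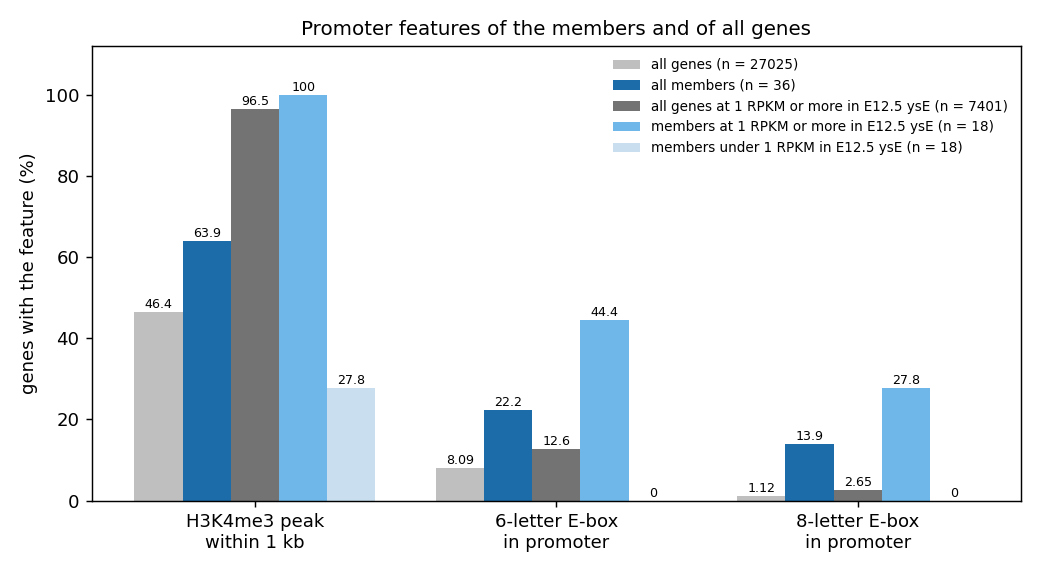
The bars give the percentage of genes (y axis) with an H3K4me3 peak of E12.5 VYS within 1 kb of the start, or with the 6-letter (CACGTG) or 8-letter (TCACGTGA) motif in the promoter, for all genes (greys) and members (blues), with the number of genes in the key. Only members with an annotated promoter are counted. Those at 1 RPKM or more in E12.5 ysE held the 6-letter motif in 44.4% of cases, against 12.6% of all genes at that level. Their share with a peak was 100% against 96.5%.

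Among the cysteine cathepsins, Ctsl, an endopeptidase and the most abundant member, was at 707 and 650 RPKM in E9.25 ysE A and B and at 719 RPKM in E12.5 ysE. It was at 130 and 163 RPKM in mesoderm and at 42.3 and 64.2 RPKM in liver. In cystic EBs it was at 944 and 1403 RPKM in clone A9 (days 10 and 15) and at 306 and 498 RPKM in line JN. The 3 ysE libraries thus lay close together, well above mesoderm and liver, and inside the range of the cystic EBs, whose 2 lines stood on either side of ysE in RPKM. Ctsl made up 35.7% to 41.6% of cathepsin RPKM in ysE and 53.6% to 69.1% in cystic EBs.

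Ctsz, a carboxypeptidase, was at 354 and 403 RPKM in E9.25 ysE and at 428 RPKM in E12.5 ysE. It was at 67.0 and 84.1 RPKM in mesoderm, at 30.1 and 33.4 RPKM in liver, and at 89.4, 50.8, 125 and 76.4 RPKM in cystic EBs (day 10 A and B, then day 15 A and B). Unlike Ctsl, Ctsz was higher in each ysE library than in all 8 others.

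Ctsb, which cuts within proteins and also trims their carboxyl end, was at 186 and 209 RPKM in E9.25 ysE and at 233 RPKM in E12.5 ysE. It was at 59.3 and 68.0 RPKM in mesoderm, 53.2 and 80.9 RPKM in liver and, in the same order as before, 71.5, 27.1, 121 and 51.9 RPKM in cystic EBs. Here mesoderm, liver and cystic EBs overlapped one another below ysE.

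Ctsh, an aminopeptidase, was at 180 and 201 RPKM in E9.25 ysE and at 213 RPKM in E12.5 ysE. It was at 16.4 and 28.5 RPKM in mesoderm, 1.86 and 4.47 RPKM in liver and 87.6, 34.9, 84.0 and 88.2 RPKM in cystic EBs. The 4 groups other than E12.5 ysE did not overlap, in the order E9.25 ysE, cystic EBs, mesoderm and liver.

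Ctsc, which removes dipeptides from the amino end of proteins and activates serine proteases of leukocytes, was at 135 and 120 RPKM in E9.25 ysE and at 44.8 RPKM in E12.5 ysE. It was at 17.4 and 31.6 RPKM in mesoderm, 4.26 and 5.597 RPKM in liver and 22.4, 11.7, 17.0 and 15.3 RPKM in cystic EBs. The ysE libraries were above all others at both stages, with the later stage nearer to mesoderm B.

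The other cysteine cathepsins were low in ysE. Ctsf was at 0.925 and 0.960 RPKM in E9.25 ysE, 2.01 RPKM in E12.5 ysE, 0.803 and 0.590 RPKM in mesoderm, 1.63 and 2.02 RPKM in liver and 7.16, 7.31, 10.4 and 12.49 RPKM in cystic EBs, all 4 of which were above the rest. Ctso was at 0.240 and 0.220 RPKM in E9.25 ysE and 0.645 RPKM in E12.5 ysE. It was at 3.68 and 3.92 RPKM in mesoderm, 1.64 and 1.92 RPKM in liver and 1.57, 0.624, 1.82 and 2.04 RPKM in cystic EBs, highest in mesoderm. Ctsk, the collagen-degrading cathepsin of osteoclasts, stayed between 0.141 and 1.72 RPKM throughout. Ctsw, known from cytotoxic lymphocytes, reached its highest value, 1.135 RPKM, in EB day 10 B.

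Ctsd, the main aspartic protease of lysosomes, had another pattern. It was at 96.9 and 111.4 RPKM in E9.25 ysE and at 281 RPKM in E12.5 ysE. It was at 143 and 131 RPKM in mesoderm, 24.7 and 35.3 RPKM in liver and 111.9, 115, 156 and 154 RPKM in cystic EBs. The later ysE was above every other library. The earlier ysE was below mesoderm and cystic EBs in RPKM. In CPM as in the test (reads scaled by library size and TMM normalization factors, not transcript length) it was at 263 and 299.5. There it overlapped mesoderm (303.5 and 289.6) and cystic EBs (219.4 to 325.6), so the order depends on the scaling. Ctsa, the serine carboxypeptidase that also shields beta-galactosidase and neuraminidase in the lysosome, was at 37.5 and 46.8 RPKM in E9.25 ysE and at 91.2 RPKM in E12.5 ysE. It was at 19.1 and 20.5 RPKM in mesoderm, 5.86 and 9.70 RPKM in liver and 28.2, 14.9, 42.1 and 24.9 RPKM in cystic EBs, which overlapped E9.25 ysE in RPKM.

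Among cathepsins known from blood cells or stomach, Ctse, Ctss and Ctsg were mostly found in liver. Ctsw was not, at 0.304 and 0.266 RPKM in liver and 1.135 RPKM in EB day 10 B. Ctse, an aspartic protease of red cell precursors and stomach, was at 0.194 and 0.150 RPKM in E9.25 ysE, 0.197 RPKM in E12.5 ysE, 3.15 and 4.31 RPKM in mesoderm and 8.10 and 15.0 RPKM in liver. In cystic EBs it was at 0.201, 0.066, 0.033 and 0.16 RPKM, overlapping ysE. Ctss, of macrophages and dendritic cells, was at 9.32 and 12.47 RPKM in liver A and B and did not pass 1.01 RPKM elsewhere. Ctsg, of neutrophils, was at 6.34 and 10.7 RPKM in liver, 0.025 and 0.150 RPKM in E9.25 ysE, 0 in E12.5 ysE, 0.244 and 0.060 RPKM in mesoderm and 0.032, 0.017, 0 and 0 RPKM in cystic EBs. Summed macrophage markers were also highest in liver, at 38.5 and 63.6 RPKM. Of the 7, 5 were called higher there than in E12.5 ysE (23.7% of all transcripts were) and 2 were not called. The sum does not give the order of every marker. They were at 3.57 to 3.72 RPKM in E9.25 ysE, 9.99 RPKM in E12.5 ysE, 8.35 and 9.99 RPKM in mesoderm and 3.31 to 10.1 RPKM in cystic EBs, and all 7 markers were detected in each library. Csf1r alone gave 8.59 RPKM of the sum in E12.5 ysE and ran against the order, at 3.31 and 4.99 RPKM in liver (1.09 ± 1.07 against liver, adjusted p = 0.429). Their part in these differences was not tested.

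**Figure D2:**
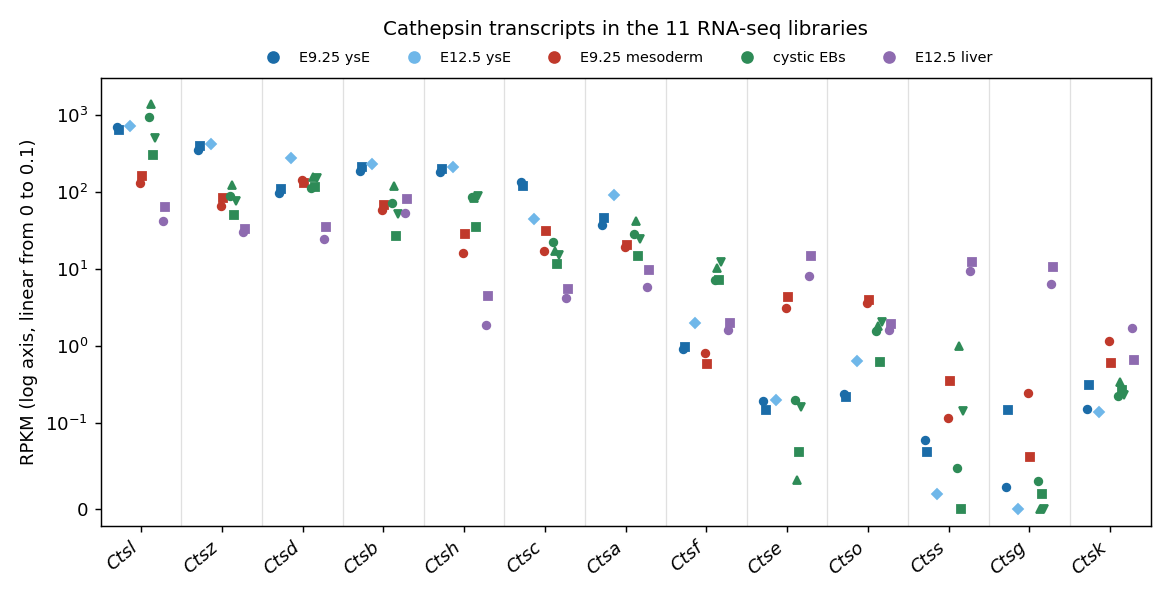
Each point is the RPKM of a cathepsin (y axis, log scale that is linear from 0 to 0.1) in 1 library, coloured by tissue. Circles are replicate A and squares replicate B (for cystic EBs those of day 10, with day 15 A and B as upward and downward triangles), and the diamond is the single E12.5 ysE library. Ctsl, Ctsz, Ctsb, Ctsh, Ctsc and Ctsa have ysE above mesoderm and liver, whereas Ctsd has only E12.5 ysE above both, and Ctss and Ctsg are seen mainly in liver.

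For the V-ATPase, a single gene supplied nearly all RNA of most subunits that have alternative copies. Atp6v1e1 made up 99.97% to 100% of the RPKM of the V1 E genes over the 11 libraries, Atp6v1b2 99.4% to 100% of the B genes, Atp6v1c1 98.7% to 99.9% of the C genes and Atp6v1g1 96.3% to 99.96% of the G genes. For V0, Atp6v0d1 made up 98.6% to 100% of the d genes and Atp6v0e 92.9% to 99.6% of the e genes. Several alternative copies were near 0, since Atp6v1b1, Atp6v1c2, Atp6v1e2, Atp6v1g2 and Atp6v0d2 did not pass 0.442 RPKM in any library and no read was counted for Atp6v1g3.

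Among the V1 genes, Atp6v1e1, part of the peripheral stalk that holds the rotor housing still, was at 250 and 238 RPKM in E9.25 ysE and 182 RPKM in E12.5 ysE. It was at 67.0 and 74.4 RPKM in mesoderm, 18.1 and 35.4 RPKM in liver and 62.4, 87.9, 70.0 and 100.1 RPKM in cystic EBs. Every ysE library was above every other library, and mesoderm lay within the EB range.

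Atp6v1b2, one of the subunits at the ATP binding sites, was at 138 and 143 RPKM in E9.25 ysE and 120 RPKM in E12.5 ysE. It was at 33.9 and 42.97 RPKM in mesoderm, 12.46 and 14.8 RPKM in liver and 54.9, 47.8, 56.7 and 53.3 RPKM in cystic EBs. The EB libraries were above mesoderm and liver and below ysE, with little spread between the 2 lines.

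Atp6v1a, the catalytic subunit, was at 113 and 101 RPKM in E9.25 ysE and at 54.0 RPKM in E12.5 ysE. It was at 45.6 and 46.7 RPKM in mesoderm, 10.1 and 11.9 RPKM in liver and 54.8, 49.97, 63.7 and 62.2 RPKM in cystic EBs. In RPKM the later ysE fell among the EB values. Atp6v1c1, which links the 2 parts of the pump, was at 91.1 and 89.6 RPKM in E9.25 ysE and at 42.8 RPKM in E12.5 ysE, with mesoderm at 36.6 and 34.3 RPKM, liver at 14.6 and 20.5 RPKM and cystic EBs at 27.99, 39.7, 30.7 and 37.1 RPKM. Here the later ysE was lower than the earlier one but above all other libraries.

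Atp6v1g1, another part of the stalk, was at 139 and 127 RPKM in E9.25 ysE, 31.2 RPKM in E12.5 ysE, 51.7 and 57.2 RPKM in mesoderm and 19.3 and 22.4 RPKM in liver. In cystic EBs it was at 10.0 and 12.9 RPKM in clone A9 and at 81.9 and 91.6 RPKM in line JN. Its 6 dUTP libraries were therefore all above its 5 other libraries, whatever the tissue. Atp6v0b of V0 also separated the EB lines, at 19.5 and 25.3 RPKM in clone A9 and 63.9 and 71.0 RPKM in line JN. For both genes, library protocol and cell line cannot be told apart within the EBs.

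The regulatory subunit gene Atp6v1h was at 81.3 and 81.1 RPKM in E9.25 ysE and 63.8 RPKM in E12.5 ysE, with 41.5 and 38.0 RPKM in mesoderm, 7.95 and 9.54 RPKM in liver and 62.3, 50.5, 66.1 and 57.8 RPKM in cystic EBs. Atp6v1f, of the central rotor, ran against the order of the other V1 genes, since liver was highest at 92.6 and 132 RPKM. It was at 60.5 and 80.2 RPKM in E9.25 ysE, 73.4 RPKM in E12.5 ysE, 37.8 and 35.9 RPKM in mesoderm and 57.2, 37.8, 80.7 and 53.5 RPKM in cystic EBs.

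Atp6v0b, encoding a proteolipid of the V0 proton-carrying ring, was at 204 and 248.9 RPKM in E9.25 ysE and 215 RPKM in E12.5 ysE. It was at 65.8 and 77.7 RPKM in mesoderm and at 3.97 and 5.20 RPKM in liver, with the EB values given above. No ysE library overlapped another tissue, and liver was far below all others. For this gene the ScriptSeq libraries, those of liver and EB clone A9, were all below the libraries of the other protocols. The part of protocol in its differences from liver and cystic EBs was not tested. The ring's more common proteolipid gene Atp6v0c, at 0.057 to 4.78 RPKM, cannot be judged because its near-identical copy Atp6v0c-ps2 ran from 0.059 to 4.83 RPKM in parallel and the 2 may share reads, which was not tested. How reads with several matches were counted is not given in the sources used here.

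Atp6v0d1, which joins the ring to the rotor, was at 56.8 and 68.4 RPKM in E9.25 ysE, 69.3 RPKM in E12.5 ysE, 30.8 and 32.4 RPKM in mesoderm, 9.13 and 9.03 RPKM in liver and 41.0, 27.8, 47.6 and 33.8 RPKM in cystic EBs. Atp6v0e, a small membrane subunit, was at 77.4 and 77.8 RPKM in E9.25 ysE, 67.6 RPKM in E12.5 ysE, 37.8 and 38.3 RPKM in mesoderm, 25.2 and 27.4 RPKM in liver and 39.3, 43.5, 49.6 and 54.2 RPKM in cystic EBs. In both genes ysE was above all other libraries. Its alternative copy Atp6v0e2, better known from brain, was highest in cystic EBs, with E12.5 ysE in their range. It was at 0.521 and 0.806 RPKM in E9.25 ysE and 2.58 RPKM in E12.5 ysE, at 0.589 and 0.391 RPKM in mesoderm, at 0.102 and 0.157 RPKM in liver and at 2.01, 2.67, 3.77 and 3.20 RPKM in cystic EBs.

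The V0 a subunit, which sets where in the cell the pump sits, was the exception to the use of 1 gene. Atp6v0a1 was at 20.5 and 26.3 RPKM in E9.25 ysE, 17.5 RPKM in E12.5 ysE, 8.74 and 12.2 RPKM in mesoderm, 11.8 and 13.6 RPKM in liver and 10.5, 10.8, 11.8 and 10.2 RPKM in cystic EBs. Atp6v0a2 was at 9.87 and 13.1 RPKM in E9.25 ysE, 7.87 RPKM in E12.5 ysE, 10.9 and 11.3 RPKM in mesoderm, 2.02 and 2.81 RPKM in liver and 2.84, 6.54, 2.52 and 5.55 RPKM in cystic EBs. Atp6v0a4 was at 4.29 and 4.32 RPKM in E9.25 ysE, 12.2 RPKM in E12.5 ysE, 0.677 and 1.18 RPKM in mesoderm, 0.030 and 0.056 RPKM in liver and 0.404, 0.886, 0.840 and 0.579 RPKM in cystic EBs. All 3 ysE libraries exceeded every other library for Atp6v0a1 and Atp6v0a4, but not for Atp6v0a2. Atp6v0a4 took 26.3% of the RPKM of the 4 a genes in E12.5 ysE and as little as 0.184% elsewhere. The fourth a gene, Tcirg1, known from osteoclasts, lies outside the naming rule and took 13.9% to 21.2%.

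The accessory genes Atp6ap2 and Atp6ap1 were lowest in liver. Atp6ap2, also called the prorenin receptor, was at 25.2 to 27.9 RPKM in the ysE libraries, 20.5 and 22.3 RPKM in mesoderm, 7.22 and 8.22 RPKM in liver and 31.4 to 46.4 RPKM in cystic EBs. In CPM with the TMM factors of the test, cystic EBs (71.2 to 117.1) overlapped E9.25 ysE (82.2 and 91.8). Atp6ap1 was at 25.5 to 34.0 RPKM in ysE, 21.3 and 21.4 RPKM in mesoderm, 8.74 and 11.1 RPKM in liver and 18.0 to 34.1 RPKM in cystic EBs. Atp6v1d, of the central rotor, lay between 24.8 and 70.7 RPKM in all libraries, with E9.25 ysE on top.

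**Figure D3:**
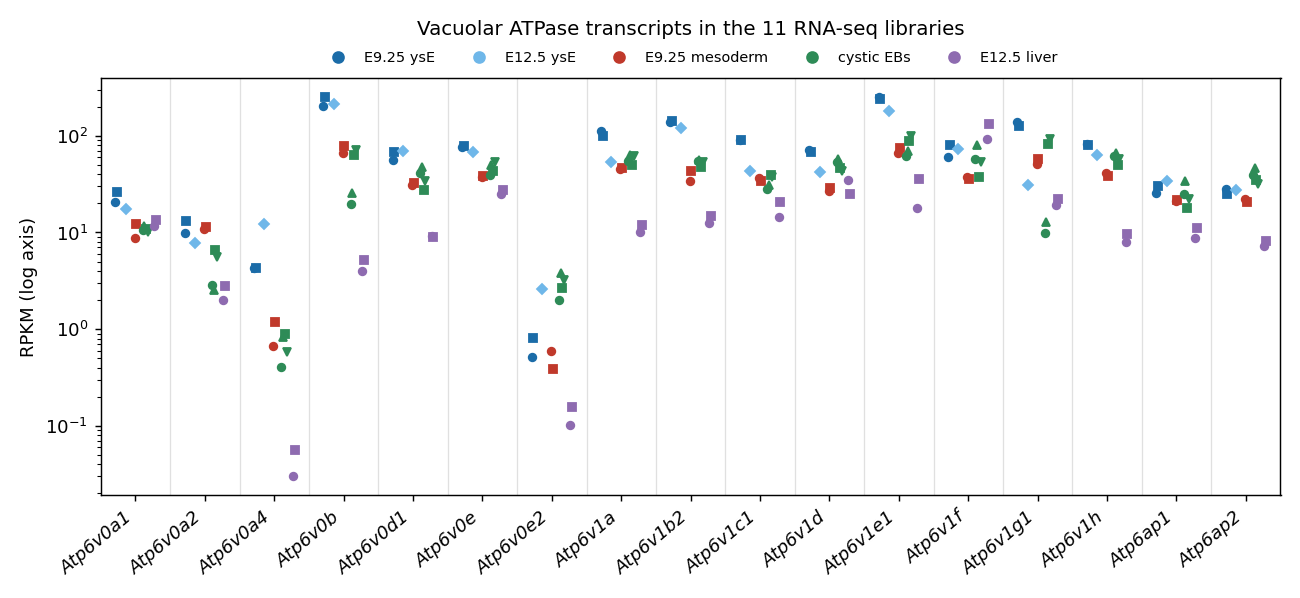
RPKM (y axis, log scale) of the V-ATPase genes discussed, 1 point per library, with colours for tissues and symbols for replicates (circles A, squares B, triangles EB day 15, diamond E12.5 ysE). Of the 17 genes, 11 are highest in an E9.25 ysE library, 14 are lowest in a liver library and 9 are both. The same counts were not made over all genes, so these describe the plotted genes only. Atp6v1f has liver on top, and Atp6v1g1 separates the libraries by protocol, from 10.0 RPKM in EB day 10 A to 139 RPKM in E9.25 ysE A.

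The comparisons below used edgeR's quasi-likelihood test on the counts of all 11 libraries, fitted for 24858 transcripts with Benjamini-Hochberg adjustment over all of them and a false discovery rate (FDR) of 5%. Log2 fold changes are given with their standard error and come from scaled counts, so they need not equal the ratio of RPKM values. Of the 48 members, 45 could be tested. Atp6ap1l, Atp6v1e2 and Atp6v1g3 were too low. The comparisons share ysE, EB or liver libraries and are not independent of one another. Both days of an EB line were fitted as separate samples, so p-values of comparisons with cystic EBs do not allow for that pairing.

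E9.25 ysE and mesoderm are the 2 layers of the same membrane, sequenced with the same protocol, and comparing them asks what sets the absorptive layer apart. Of the 45 members, 18 were higher in ysE, where 13.7% of all transcripts tested were, and 2 were lower, where 16.9% of all transcripts were. The median log2 fold change was 0.76 over members and -0.05 over all transcripts. Of the V-ATPase genes tested, 12 of 23 were higher and 0 lower (Atp6v1g1 missed the threshold, log2 fold change 1.60 ± 0.91, adjusted p = 0.215), and of the cathepsins 6 of 22 were higher and 2 lower.

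Ctsh had the largest increase among the members called (3.40 ± 0.56, adjusted p = 0.0018), followed by Ctsc (2.69 ± 0.38, adjusted p = 0.000915), Ctsz (2.64 ± 0.41, adjusted p = 0.00133), Ctsl (2.53 ± 0.65, adjusted p = 0.0156) and Atp6v0a4 (2.52 ± 0.48, adjusted p = 0.00361). Ctse (-4.13 ± 0.68, adjusted p = 0.00189) and Ctso (-3.73 ± 0.52, adjusted p = 0.000816) were lower in ysE. The other V-ATPase genes called ranged from Atp6v1f (1.25 ± 0.35) to Atp6v1b2 (2.19 ± 0.23), and included the most abundant gene of each V1 subunit except Atp6v1g1. Ctsd did not pass the test (-0.08 ± 0.27, adjusted p = 0.872). Among libraries of only the dUTP protocol 21 members were higher and 3 lower (22.8% and 26.3% of all transcripts were), and Atp6v1g1 was among the former (1.53, adjusted p = 0.000219). The calls of Ctsl, Ctsb, Ctsa, Atp6v0b and Atp6v1f were lost when any of the 4 libraries was left out, which gave 12 or 13 members higher (5.59% to 8.04% of all transcripts were), and that of Atp6v0d1 when mesoderm A was left out. The other 14 of the 20 calls held in all 21 alternatives tried. As stated above, mesoderm carried much more erythroid RNA, and Ctse is known from red cell precursors. The part of that RNA in the Ctse difference was not tested.

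**Figure D4:**
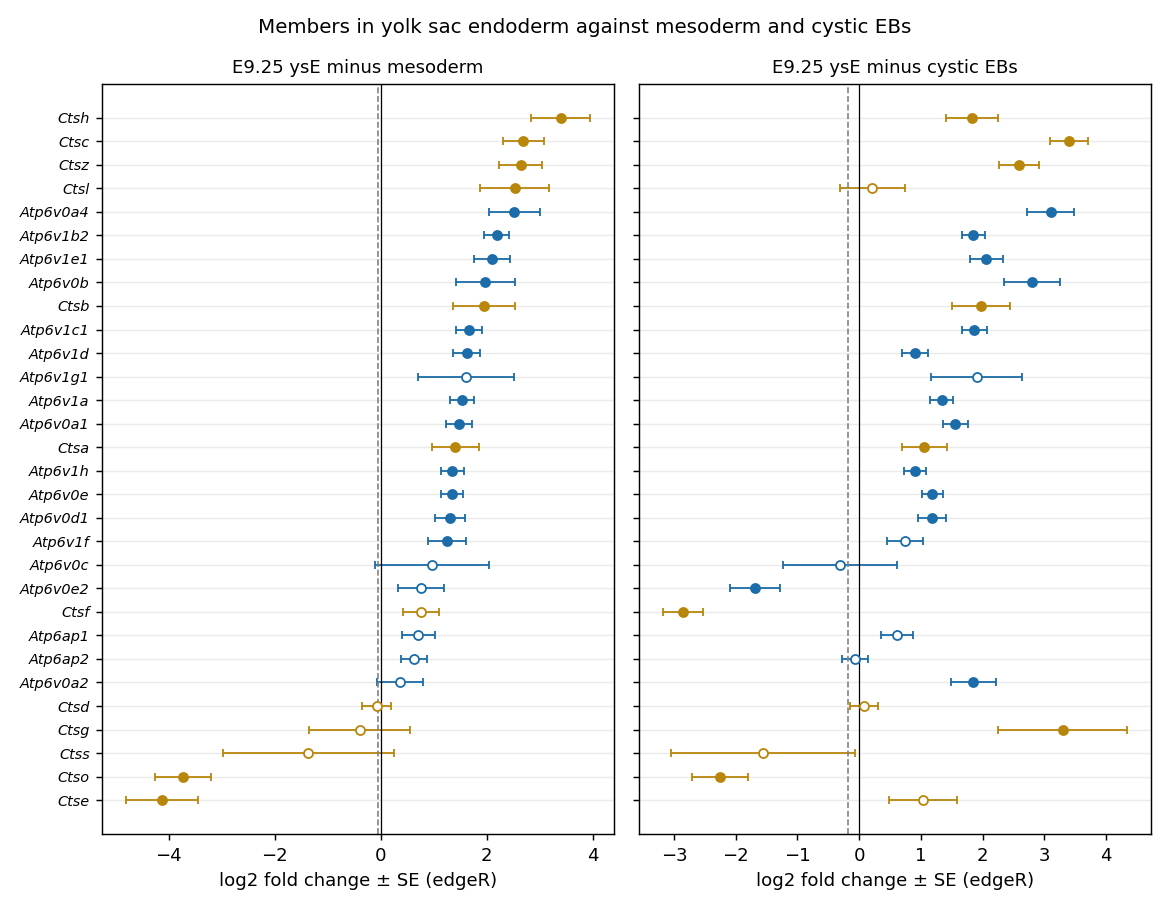
Log2 fold changes (x axis) with their standard error (bars) from edgeR for 30 members, E9.25 ysE against mesoderm (left) and against cystic EBs (right). Filled points passed an FDR of 5% and open points did not, gold marks cathepsins and blue V-ATPase genes, and the dashed line is the median of all transcripts (-0.05 and -0.17). Ctsl is filled at 2.53 on the left and open at 0.21 on the right.

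E9.25 ysE against cystic EBs asks how near the cultured aggregates come to the tissue in these genes. Of the 45 members, 18 were higher in ysE (23.2% of all transcripts were) and 3 were lower (27.1% of all transcripts were), with a median log2 fold change of 0.29 over members and -0.17 over all transcripts. The V-ATPase genes gave 12 higher and 1 lower, and the cathepsins 6 higher and 2 lower. Among the higher calls, that of Ctsa was lost in 9 and that of Atp6v1d in 2 of the 20 alternatives.

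The largest increases were those of Ctsc (3.39 ± 0.31, adjusted p = 5.31e-05), Ctsg (3.30 ± 1.04, adjusted p = 0.0255), Atp6v0a4 (3.10 ± 0.38, adjusted p = 0.000206), Atp6v0b (2.80 ± 0.45) and Ctsz (2.59 ± 0.32). Ctsg rests on 0.025 and 0.150 RPKM in ysE and its call was lost without ysE B, without EB day 15 B and among dUTP libraries only. Lower in ysE were Ctsf (-2.86 ± 0.33, adjusted p = 0.000152), Ctso (-2.26 ± 0.45, adjusted p = 0.00298) and Atp6v0e2 (-1.69 ± 0.40, adjusted p = 0.00705). The call of Atp6v0e2 was lost without ysE A, while those of Ctsf and Ctso held in all 20 alternatives. Ctsl, the most abundant cathepsin of both, did not pass the test (0.21 ± 0.53, adjusted p = 0.749). Among dUTP libraries only, where the EBs are those of line JN, Ctsl was higher in ysE by 1.13 on the log2 scale (adjusted p = 0.00651), and 21 members were higher and 6 lower (27.2% and 33.7% of all transcripts were). Without EB day 10 B, 6 were lower as well, with 27.7% of all transcripts. Ctsd (0.08 ± 0.23, adjusted p = 0.79) and Atp6ap2 (-0.07 ± 0.21, adjusted p = 0.788) did not pass either.

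For E12.5 ysE there was 1 library, whose spread was taken from the other groups, and its protocol was used for no other tissue, so tissue, stage and protocol cannot be told apart. Against liver of the same stage, 20 of 45 members were higher in ysE (22.6% of all transcripts were) and 7 lower (23.7% of all transcripts were), with a median of 0.62 over members and -0.26 over all transcripts. The V-ATPase genes gave 13 higher and 0 lower and the cathepsins 7 higher and 7 lower. The largest increases were those of Atp6v0a4 (8.19 ± 0.65), Ctsh (6.11 ± 0.66), Atp6v0b (5.59 ± 0.69) and Atp6v0e2 (4.35 ± 0.54). Ctsl (3.79 ± 0.74), Ctsz (3.78 ± 0.46), Ctsa (3.59 ± 0.52), Ctsd (3.27 ± 0.32) and Ctsc (3.22 ± 0.43) were also higher. Among the higher calls, that of Ctsb was lost in 12 of the 18 alternatives, that of Atp6v0a2 in 2 and that of Atp6v1c1 in 1. Those lower in ysE were Ctse (-5.83 ± 1.03), Ctsk (-3.05 ± 0.91), Ctss, Ctsg and the placental Cts3, Cts6 and Ctsm, and without liver A 4 members were lower (19.1% of all transcripts were). Of these 7 calls those of Ctse and Ctsg held in all 18 alternatives. That of Ctss was lost in 7, of Ctsm in 3 and of Ctsk in 2, and DESeq2 did not call Cts3 (adjusted p = 0.175) or Cts6 (adjusted p = 0.164). For genes with no count in E12.5 ysE, RPKM was at least 123-fold lower than the liver mean for Ctsg, 63.0-fold for Cts6 and 53.4-fold for Cts3, taking 3 counts in that library as the floor. Ctsj and Ctsq were not called, yet they also had no count there. By the same floor they were at least 154-fold and 291-fold lower than the liver mean.

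Against cystic EBs, 13 of 45 members were higher in E12.5 ysE (18.8% of all transcripts were) and 1 was lower (21.1% of all transcripts were), with a median of 0.11 over members and -0.42 over all transcripts. Atp6v0a4 (4.53 ± 0.43), Ctsz (2.68 ± 0.37), Atp6v0b (2.64 ± 0.53), Ctsb (2.13 ± 0.56) and Ctsa (2.08 ± 0.43) had the largest increases, and Ctsf was the member that was lower (-1.85 ± 0.42), with 2 lower when EB day 10 B was left out (22.1% of all transcripts were). The calls of Ctsb, Atp6v0d1 and Atp6v0e were lost when only the groups compared were fitted. Ctsd, which did not pass the test at E9.25, was higher by 1.43 ± 0.28 here. Cystic EBs themselves stood above liver for 21 members (24.6% of all transcripts were) and below it for 9 (20.9% of all transcripts were), with a median of 1.0 over members and 0.20 over all transcripts. Ctsh (4.21 ± 0.56), Atp6v0e2 (4.17 ± 0.48), Atp6v0a4 (3.67 ± 0.51) and Ctsl (3.58 ± 0.64) were higher in cystic EBs. The 21 count both Atp6v0c and its copy Atp6v0c-ps2, which may share reads. Among these calls, that of Atp6v0e was lost in 15 and that of Atp6v1c1 in 11 of the 20 alternatives. The 9 that were lower were Ctsg (-9.71 ± 1.0), Ctse (-6.98 ± 0.58), Ctss (-5.53 ± 1.33), Ctsm (-5.16 ± 0.94), Ctsk (-2.49 ± 0.51), Atp6v1f (-1.29 ± 0.29), Atp6v0a1 (-0.55), Cts3 and Cts6, the last with no count in cystic EBs and at least 83.6-fold lower than the liver mean, taking 3 counts in each EB library as the floor. The calls of Ctsg, Ctse, Ctss, Ctsm and Cts6 held in all 20 alternatives. That of Atp6v0a1 was lost in 16, that of Cts3 under DESeq2 (adjusted p = 0.0783), that of Ctsk in 2, both without liver A, and that of Atp6v1f without liver B (adjusted p = 0.0684). Leaving out liver A alone reduced the 21 to 12, and the share of all transcripts that were higher from 24.6% to 15.7%. Among ScriptSeq libraries only, 16 members were higher and 9 lower (21.8% and 22.2% of all transcripts were), and Atp6v1g1 turned from 0.88 ± 0.80 (adjusted p = 0.385) to -1.16 (adjusted p = 0.0155).

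Between the stages of ysE, 1 member was higher at E12.5 (3.9% of all transcripts were) and 2 were lower (4.57% of all transcripts were), with a median of -0.14 over members and -0.21 over all transcripts. Ctsd was higher at E12.5 (1.35 ± 0.32, adjusted p = 0.0321), and Atp6v1c1 (-1.16 ± 0.31, adjusted p = 0.0483) and Atp6v1a (-1.07 ± 0.28, adjusted p = 0.0489) were lower. None of these 3 calls held in every alternative, and leaving out either E9.25 ysE library ended all of them. Ctsc (-1.59 ± 0.48, adjusted p = 0.0709) and Atp6v0e2 (1.88 ± 0.51, adjusted p = 0.0522) did not pass.

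Between EB days, 0 of 38 members tested were called in either direction by edgeR (0 of all 22452 transcripts, or 0% in each direction, of which 304 had an unadjusted p below 0.05), also with the line as a block. Of the members, Ctss (4.83) and Ctsj (7.09) were among these 304. DESeq2 called 17 transcripts, among them Ctsj.

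The placental cathepsins stood apart from the rest. These 8 genes lie side by side on chromosome 13 between start sites 61005925 and 61570127, with Ctsl on the same chromosome at 64370520 (GRCm38.p6), and are known from trophoblast, the outer cells of the placenta. Their summed RPKM (A and B) was 0.342 and 0.454 in E9.25 ysE, 0 in E12.5 ysE and 1.57 and 0.259 in mesoderm. It reached 40.8 and 21.6 in liver. Cystic EBs gave 1.13 and 0.128 at day 10 and 142 and 1.09 at day 15. They were thus at hand in both liver libraries and in a single EB library.

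The genes found in those libraries were not the same. Ctsj was at 10.1 and 6.78 RPKM in liver and 108 RPKM in EB day 15 A, where it was the most abundant of the 8. Ctsq was at 21.3 and 9.14 RPKM in liver and 10.6 RPKM in EB day 15 A. Ctsr was at 1.58 and 0.667 RPKM in liver and 18.5 RPKM in EB day 15 A. Cts6, at 3.91 and 2.72 RPKM in liver, had no count in any other library. Cts3 was at 3.27 and 1.88 RPKM in liver and 0.036 RPKM in EB day 15 A. Cts7 and Cts8, in turn, had no count in liver and were at 3.72 and 1.16 RPKM in EB day 15 A. Near-identical stretches among these 8 genes may divide reads between them.

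Other trophoblast genes moved with them in part. The summed RPKM of 28 genes of the placental prolactin family and Tpbp genes, listed after the cathepsin values had been seen, was 73.7 and 24.7 in liver and 194 in EB day 15 A, against 1.47 to 2.96 in the other EB libraries. It was also 650 in mesoderm A and 22.6 in mesoderm B, 38.5 and 69.7 in E9.25 ysE and 0.025 in E12.5 ysE, so mesoderm A combined the highest prolactin sum with only 1.57 RPKM of placental cathepsins. The part of trophoblast RNA in these values was not tested. Without mesoderm A, liver A and EB day 15 A, the 3 libraries with the most prolactin RNA, 12 members instead of 18 were higher in E9.25 ysE than in mesoderm and 2 lower, and 12 instead of 21 were higher in cystic EBs than in liver. The share of all transcripts that were higher fell as well, from 13.7% to 5.58% and from 24.6% to 14%.

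**Figure D5:**
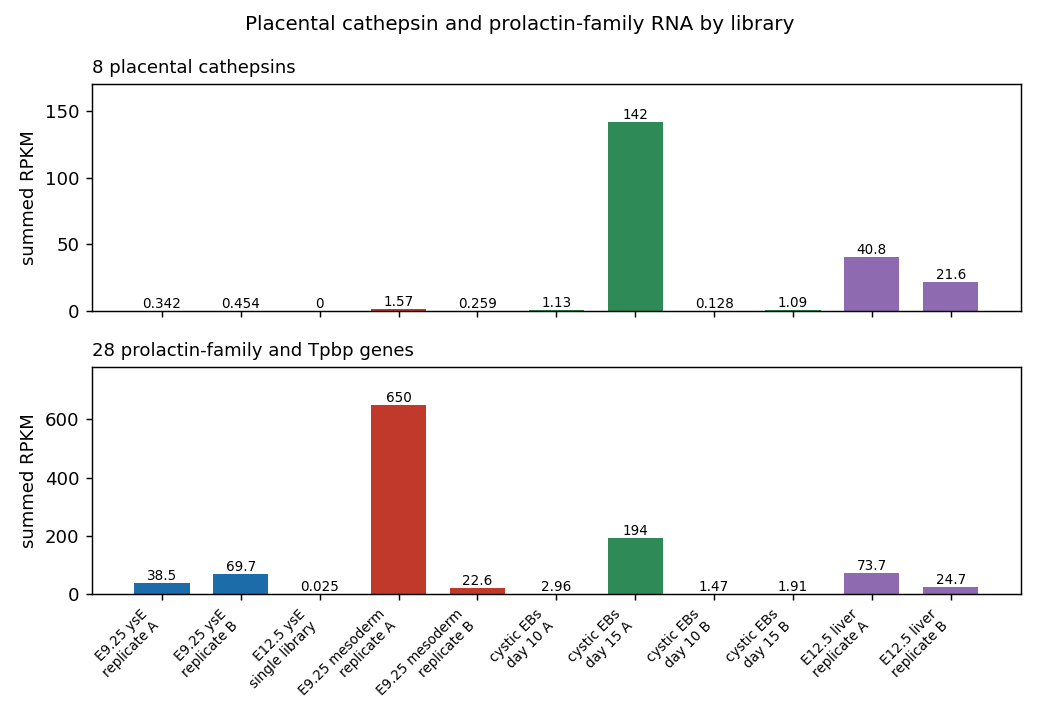
Bars give the summed RPKM (y axis, from 0) of the 8 placental cathepsins (top) and of 28 prolactin-family and Tpbp genes (bottom) in each of the 11 libraries, with the value above each bar. EB day 15 A is highest for the cathepsins at 142 RPKM and mesoderm A for the prolactin family at 650 RPKM.

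The wider set of lysosomal genes was followed with a list of 63 that lie outside the naming rule, all of which could be tested. This list, too, was chosen with earlier results of these data known. The list holds no cathepsin, but it holds the V-ATPase gene Tcirg1. Between E9.25 ysE and mesoderm, 27 of the 63 were higher in ysE (13.7% of all transcripts were) and 5 lower (16.9% of all transcripts were), with a median log2 fold change of 1.001, beside -0.05 over all transcripts. The counts by class are read against the same shares. Of 23 glycosidases and sulfatases 7 were higher and 3 lower, with Manba (2.84) and Neu1 (2.68), which clear sugar chains, among the former and Gusb (-2.06) among the latter. Of 17 membrane and transport proteins 9 were higher and 0 lower, and Tcirg1 (1.03) is counted in both the 17 and the 9. The others included Cd63 (2.08), Npc1 (2.02), which exports cholesterol, Ostm1 (1.93) and the calcium channel gene Mcoln1 (1.77). Of 9 other hydrolases 6 were higher and 1 lower, led by Scpep1 (2.57), Dpp7 (2.40) and Lgmn (2.21), whose product legumain processes cathepsins. Of 8 lipid hydrolases and activators 2 were higher, and of 6 sorting genes 3 were higher and 1 lower, the latter Sort1 (-2.68).

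Lgmn was at 405 and 403 RPKM in E9.25 ysE, 463 RPKM in E12.5 ysE, 89.9 and 127 RPKM in mesoderm, 15.9 and 25.6 RPKM in liver and 185, 79.7, 190 and 167 RPKM in cystic EBs, the same order of tissues as Ctsh except for 1 EB library. Of the 4 MiT/TFE factor genes, Tfeb was at 13.2 and 15.95 RPKM in E9.25 ysE, 14.1 RPKM in E12.5 ysE, 1.30 and 2.32 RPKM in mesoderm, 0.93 and 1.46 RPKM in liver and 2.45, 1.51, 2.91 and 2.89 RPKM in cystic EBs. Tfeb (3.32, adjusted p = 0.000614) and Tfe3 (1.46, adjusted p = 0.0117) were higher in E9.25 ysE than in mesoderm, and Mitf and Tfec did not pass. Of 10 cystatins, inhibitors of cysteine cathepsins, 6 were tested, and Cstb alone was called (1.52). Against liver, 47 of the 63 lysosomal genes were higher in E12.5 ysE and 3 lower, where 22.6% and 23.7% of all transcripts were, with a median of 2.16 beside -0.26. Against cystic EBs, 28 were higher in E9.25 ysE and 6 lower, where 23.2% and 27.1% of all transcripts were, with a median of 0.68 beside -0.17. In E12.5 ysE 35 were higher than in cystic EBs and 1 lower, where 18.8% and 21.1% of all transcripts were, with a median of 1.30 beside -0.42. Cystic EBs were above liver for 40 and below it for 4, where 24.6% and 20.9% of all transcripts were, with a median of 1.28 beside 0.20.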

How the data were processed

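RNA-seq of 11 libraries, bisulfite sequencing of 6 and H3K4me3 ChIP-seq of 1 were used. The authors aligned reads with GSNAP to mm10 and deposited raw counts per RefSeq transcript and RPKM values. The read total used to scale the RPKM is not given in the sources used here. For bisulfite data the authors deposited percent methylation and read counts per CpG, and for ChIP-seq peaks called with MACS (1.4.2) with their score. Exon and repeat tables were not used. In the bisulfite data no read was counted at the member promoters on chromosomes 13, 19 and X.

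Groups came from the labels. Counts were tested in R 4.3.3 with edgeR 4.0.16 (limma 3.58.1), filterByExpr, TMM factors (0.766 to 1.21) and a quasi-likelihood fit of 5 groups, at an FDR of 5% by Benjamini-Hochberg, with DESeq2 1.42.0 as the other tool. Days were compared in the 4 EB libraries. The biological coefficient of variation was 0.3995, and 0.5265 between days. Standard errors were derived from the F statistic. RPKM was used for levels and comparisons between genes. Promoter matches and figures were made in Python 3.11.15 with pandas 2.3.3, numpy 2.4.6 and matplotlib 3.10.9. Promoter reads were summed within 1 kb of a start, with at least 5 reads.

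The members and lists were chosen with earlier results of these data known. Values in every library are given for the 12 members with the highest mean RPKM, the 5 largest changes called in each direction between E9.25 ysE and mesoderm or cystic EBs, and the V-ATPase genes with alternative copies (those near 0 by their highest value), and other lysosomal genes are given by counts with up to 4 examples a class. Further members were added to these after their values were seen, as were the prolactin list, the crossed pairing and the fit without 3 libraries. EB letters mark the same line at both days (correlation of deviations 0.7277), which pairs them. The other groups share letters only.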

Additional observations from a re-analysis of the deposited data

Results flagged for a closer look

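In the group of 4 cystic EB libraries, 9 of the 46 members detected there had 1 library far from the other 3, beyond Dixon's 95% critical value for 4 samples. Chance sets about 1 in 20 such groups apart, and the genes are not independent of one another. That rate does not hold for Cts3, Cts8 and Atp6v1e2, because their other 3 libraries were at 0 and any read in the remaining one passes the critical value. Cts7 comes close to that case, with its other libraries between 0 and 0.016 RPKM. The libraries are also paired by line, with protocol tied to line, which the rate does not allow for. In 7 of the 9 it was day 15 replicate A that was high, namely Ctsj at 108 RPKM (others at most 0.882), Ctsr at 18.5 RPKM (others at most 0.19), Ctsq at 10.6 RPKM, Cts7 at 3.72 RPKM, Cts8 at 1.16 RPKM, Ctss at 1.01 RPKM and Cts3 at 0.036 RPKM. All but Ctss belong to the placental cluster, and the prolactin-family sum was also highest in that library among the EBs, at 194 RPKM. Ctsh was low in day 10 replicate B, at 34.9 RPKM, while the other 3 were between 84.0 and 88.2 RPKM. Atp6v1e2 was at 0.016 RPKM in day 10 replicate A and at 0 in the others, a value near the limit of detection.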

How the results depend on the processing

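Of 895 values for called members under other settings, 850 kept their direction and their side of the threshold and 45 lost the call. Leaving out 1 library kept 1116 of 1221, and leaving out the 3 libraries with most prolactin RNA kept 89 of 115. None of these values changed sign. Calls that held in every alternative numbered 14 of 20 for E9.25 ysE against mesoderm, 17 of 21 against cystic EBs, 19 of 27 for E12.5 ysE against liver, 11 of 14 against cystic EBs, 0 of 3 between stages and 17 of 30 for cystic EBs against liver. The cause of the losses was not tested.

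Members lower in E9.25 ysE than in cystic EBs, 3 in all, became 5 with upper quartile factors (35.8% of all transcripts were lower) and 6 among dUTP libraries only (33.7%). Members lower in E12.5 ysE than in liver, 7, became 11 when only the groups compared were fitted (31% of all transcripts), and those lower than in cystic EBs, 1, became 3 with DESeq2 (24.8%). Between stages, where 1 was higher and 2 lower, DESeq2 gave 4 higher (8.37% of all transcripts), RLE factors 2 and 0 (4.99% and 3.52%), upper quartile factors 2 and 0 (4.44% and 3.97%), no filter on low counts 0 lower (3.68%), only the groups compared 6 and 10 (25.1% and 25.2% of all transcripts, up from 3.9% and 4.57%), and leaving out the 3 libraries 0 and 0 (2.71% and 1.72%). For cystic EBs above liver, leaving them out gave 12 in place of 21 (14% of all transcripts in place of 24.6%). DESeq2 called 1 member, Ctsj, higher at day 15 of the EBs. Upper quartile factors moved the median of all transcripts from -0.05 to -0.27 for E9.25 ysE against mesoderm (3401 higher and 4212 lower became 2574 and 4906) and from -0.17 to -0.57 against cystic EBs (5758 and 6742 became 3877 and 8888).

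With the replicate block, the members called higher and lower were 18 and 2, 19 and 4, 19 and 8, 15 and 1, 1 and 0, and 20 and 9, in the order of comparisons above, and 0 between EB days. Of all transcripts 14.6% and 17.6%, 25.2% and 26.9%, 23.7% and 24.5%, 19.8% and 21.3%, 3.63% and 4.19%, 24.9% and 21.9%, and 0% were called. Only for the stages did the replicate block move a count by more than 1.5 times. Deviations of same-lettered ysE and mesoderm libraries had a correlation of -0.1133, and the crossed pairing, added after seeing the data, also gave 18 and 2.

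Leaving out each library in turn gave 12 to 20 higher and 2 lower for E9.25 ysE against mesoderm, 16 to 20 and 2 to 6 against cystic EBs, 18 to 20 and 4 to 10 for E12.5 ysE against liver, 13 to 15 and 1 to 2 against cystic EBs, 0 to 2 and 0 to 2 between stages, 12 to 21 and 7 to 12 for cystic EBs against liver, and 0 between EB days. The shares of all transcripts moved too, over 5.59% to 15.5% and 9.34% to 18.6%, 14.1% to 24.8% and 16.2% to 28%, 17.3% to 24% and 19.1% to 25.6%, 17.1% to 19.7% and 18.5% to 22.6%, 0.622% to 5.67% and 0.797% to 6.46%, and 13.5% to 26.4% and 13.4% to 22.2%, in that order. Between stages, leaving out either E9.25 ysE or either mesoderm library left 0 called. The only E12.5 ysE library could not be left out of its own comparisons. The ranges and the calls that held there therefore do not show how far they depend on that library.

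Median promoter methylation of the members (30.5%, 32.3%, 60%, 60%, 77.8% and 47.7% for ysE, liver and cystic EBs, CxF then FxC) moved with the minimum number of reads. With at least 1 read it was 28.6% in ysE FxC, 53.6% in liver CxF and 59.4% in liver FxC. With at least 10 reads it was 58.3% in ysE FxC (40% over all genes), 52.9% in liver CxF, 67.7% in liver FxC (66.7%) and 53.9% in cystic EB CxF (75%). In ysE FxC, liver FxC and cystic EB CxF the order against all genes thus turned. With at least 20 reads it was 19.2% in ysE CxF, 47.9% in liver CxF and 52.3% in liver FxC. It was then 53.7% in cystic EB CxF (78.1% over all genes) and 77.8% in cystic EB FxC (71.4%), and the order turned in both. Thin coverage limits these values, and a single library limits those of E12.5 ysE.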
